A study of Mus musculus with 5 samples.

Results

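Nodal, its co-receptor Tdgf1 and the Lefty antagonists were followed in 5 droplet single-cell RNA libraries of mouse embryonic stem cells, together with the further ligand Gdf3, the receptor Acvr2b, the inhibitor Smad7, the target Eomes and the peptide hormone gene Apela. These 9 genes were chosen by symbol among the 32285 genes listed in each library, and all 9 were found. The cells were of the REX-1 RFP line, in which the Rex1 (Zfp42) promoter drives a red fluorescent protein, and each culture grew for 72 h in its condition after a start in medium with LIF, the cytokine that holds mouse embryonic stem cells in their naive state. The ND culture had no LIF. The NS culture had LIF and no sorbitol named in its labels, and 3 further cultures had LIF and sorbitol, an osmotic stressor, at 200, 250 and 300 mM; the labels spell out neither ND nor NS. There was 1 library per condition, so no replicate error exists, no p-value is given, and condition and library cannot be told apart.

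Nodal and Gdf3 are secreted ligands of the TGF-beta superfamily. They signal through activin receptors, among them Acvr2b, with Tdgf1 (Cripto) as the membrane-bound co-receptor, and activate the transcription factors Smad2 and Smad3, which work with Smad4 and Foxh1. Lefty1 and Lefty2 are secreted, are themselves induced by the pathway and block Nodal signalling, so the pathway limits its own range. In the mouse embryo and in embryonic stem cells Nodal signalling is known for its part in the exit from naive pluripotency and in forming mesendoderm, of which the T-box factor Eomes is an early regulator.

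In GRCm38 (mm10), Lefty2 (chr1:180893108-180899103) and Lefty1 (chr1:180935022-180938400) are neighbours on the plus strand, 35.9 kb apart. Nodal is at chr10:61417972-61425338 on the plus strand, and Gdf3 at chr6:122605403-122610087 on the minus strand. Chromosome 9 holds 3 of the genes, namely Tdgf1 on the minus strand (chr9:110939603-110946158), Eomes (chr9:118478212-118486132) and Acvr2b (chr9:119402118-119434995), both on the plus strand. Apela is at chr8:65028417-65037336 on the minus strand. Values are whole-gene UMI counts and are not resolved by exon.

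Upstream sequence is shown for Tdgf1, which was lowest in ND, and for Nodal and Apela, which were highest there. Each line gives the 250 bases before the RefSeq start of the gene, 5′ to 3′ on the gene's strand, with motif matches in capitals.
Tdgf1: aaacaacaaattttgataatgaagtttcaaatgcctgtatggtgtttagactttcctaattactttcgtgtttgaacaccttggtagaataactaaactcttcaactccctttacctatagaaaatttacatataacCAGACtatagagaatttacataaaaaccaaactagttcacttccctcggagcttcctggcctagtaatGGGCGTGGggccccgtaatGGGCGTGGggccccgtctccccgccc
Nodal: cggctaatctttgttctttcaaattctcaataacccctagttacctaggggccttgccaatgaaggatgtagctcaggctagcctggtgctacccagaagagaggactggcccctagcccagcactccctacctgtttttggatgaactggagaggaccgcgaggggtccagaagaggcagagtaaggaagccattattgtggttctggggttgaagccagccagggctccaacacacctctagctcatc
Apela: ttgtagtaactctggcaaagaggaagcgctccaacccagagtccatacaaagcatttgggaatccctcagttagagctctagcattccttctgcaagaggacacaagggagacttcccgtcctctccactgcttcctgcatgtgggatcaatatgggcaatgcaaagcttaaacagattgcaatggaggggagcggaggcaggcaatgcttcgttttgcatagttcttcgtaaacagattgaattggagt
These windows are chr9:110946159-110946408, chr10:61417722-61417971 and chr8:65037337-65037586 in GRCm38.p6. RefSeq windows were matched for 5 of the 9 genes; Gdf3, Lefty1, Lefty2 and Smad7 are named only. The motifs searched on both strands were TGTGGATT (FOXH1), CAGAC (SMAD core), ATTTGCAT (octamer of POU5F1), CATTGT (SOX core), TTCNNNGAA (STAT), CTTTGA (TCF/LEF core) and GGGCGTGG (KLF). The KLF motif was added after the Tdgf1 sequence had been read. The Tdgf1 window held GGGCGTGG at 2 places, starting 45 and 26 bases before the gene start, and CAGAC 113 bases before it, none overlapping another. Among 32817 windows of the same length, 4.79% held GGGCGTGG at least once, 0.616% held it at 2 or more places, and 42.2% held CAGAC. The Nodal, Apela and Eomes windows held none of the 7 motifs, and the Acvr2b window held 1 CAGAC on its minus strand. A match is a run of letters and was not tested as a binding site.

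Each library listed 10000 barcodes. A barcode was kept if it had 500 genes or more and no more than 20% of its UMIs from mitochondrial genes, which left 9240 in ND, 10000 in NS and 9985, 10000 and 9849 at 200, 250 and 300 mM sorbitol. The kept UMIs came to 7906116 in ND, 22158653 in NS and 9218297, 9766705 and 8292073 in the sorbitol series, so 1 UMI was worth 0.126 CPM (the library's UMIs scaled to the usual common total) in ND and 0.0451 CPM in NS, the deepest. Library pairs shared 34 to 54 barcodes. Intervals are 95% and cover counting error only. Libraries were compared by log2 ratios of CPM, and a gene is called higher or lower where it reached 5 CPM in either library and differed at least 1.5-fold (0.585 on the log2 scale). The 4 comparisons with NS share that library. The median gene's log2 ratio to NS was 0.082 in ND and 0.20, 0.23 and 0.29 at 200, 250 and 300 mM; a median-of-ratios scaling lowered the sorbitol ratios by 0.22, 0.24 and 0.26 and the ND ratios by 0.021. Of the genes called, 58.6% were higher in ND, and 70.8%, 75.3% and 75.6% were higher at the 3 doses, against 54.5%, 46.9%, 47.5% and 50.6% under that scaling. In summed RNA, fewer expressing cells and less RNA per cell cannot be told apart.

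**Figure D1:**
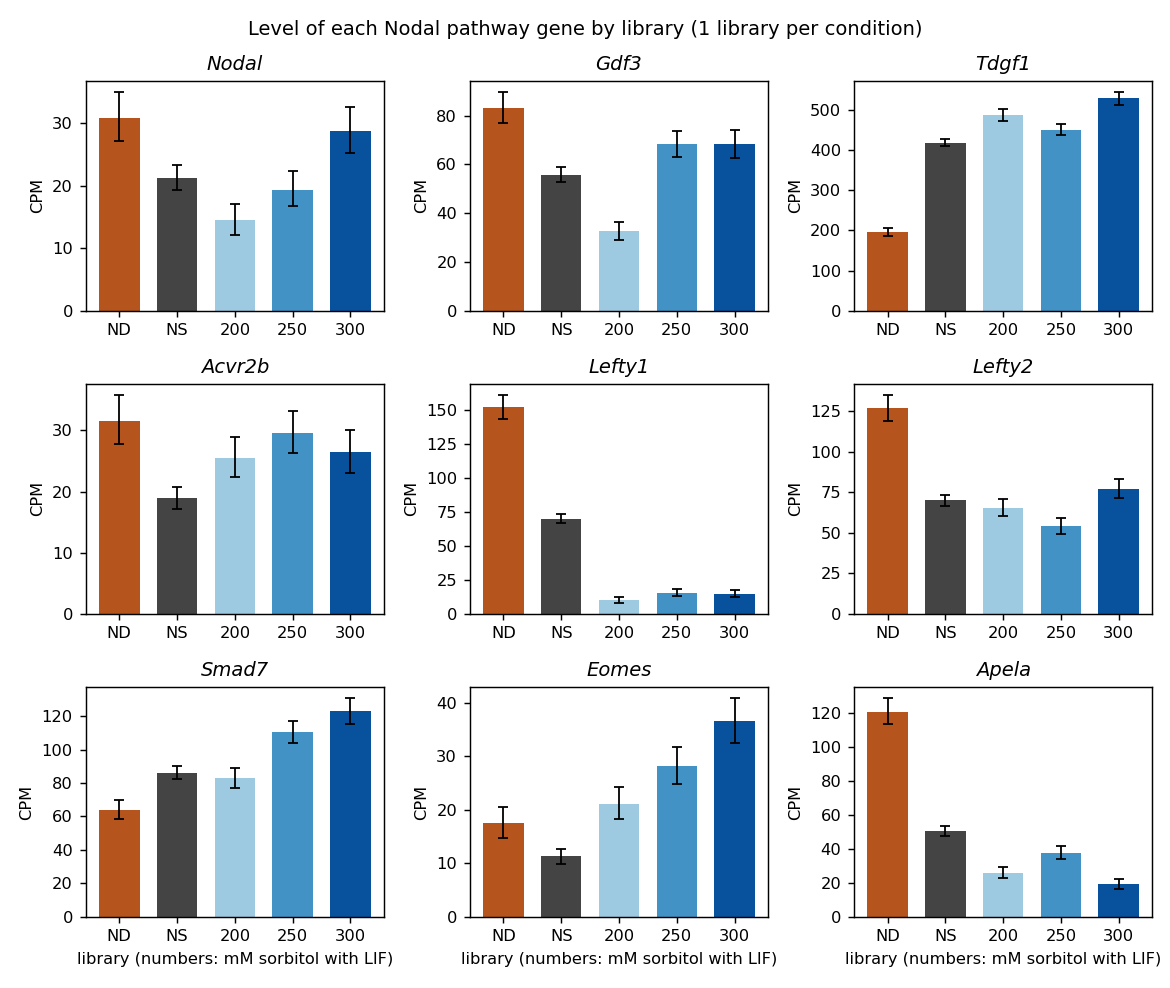
Level of each of the 9 genes in CPM (linear axis) in ND, NS and sorbitol at 200, 250 and 300 mM, 1 library each, with exact Poisson 95% intervals as error bars. Lefty1 reached 152 CPM in ND and 69.8 CPM in NS and stayed at 9.98 to 15.3 CPM in the sorbitol libraries, while Tdgf1 was lowest in ND at 197 CPM.

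Under each sorbitol dose the largest difference from NS among the 9 genes was in Lefty1, which was 4.57- to 6.99-fold lower. In ND it was 2.18-fold higher and Apela 2.40-fold higher. Lefty2, the neighbour of Lefty1, was 1.81-fold higher in ND and stayed inside 1.5-fold at all 3 doses. Tdgf1 was 2.13-fold lower in ND and differed by no more than 1.26-fold under sorbitol. In ND, 5 of the 9 genes were called higher (Acvr2b, Lefty1, Lefty2, Eomes and Apela), beside 10.0% of the 10210 genes measured in that comparison, and 1 was called lower (Tdgf1), beside 7.07%. At 200 mM, 1 was higher (Eomes), beside 26.8% of 10696 genes, and 3 were lower (Gdf3, Lefty1 and Apela), beside 11.0%. At 250 mM, 2 were higher (Acvr2b and Eomes), beside 26.5% of 10624 genes, and 1 was lower (Lefty1), beside 8.69%. At 300 mM, 1 was higher (Eomes), beside 32.8% of 10671 genes, and 2 were lower (Lefty1 and Apela), beside 10.6%.

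**Figure D2:**
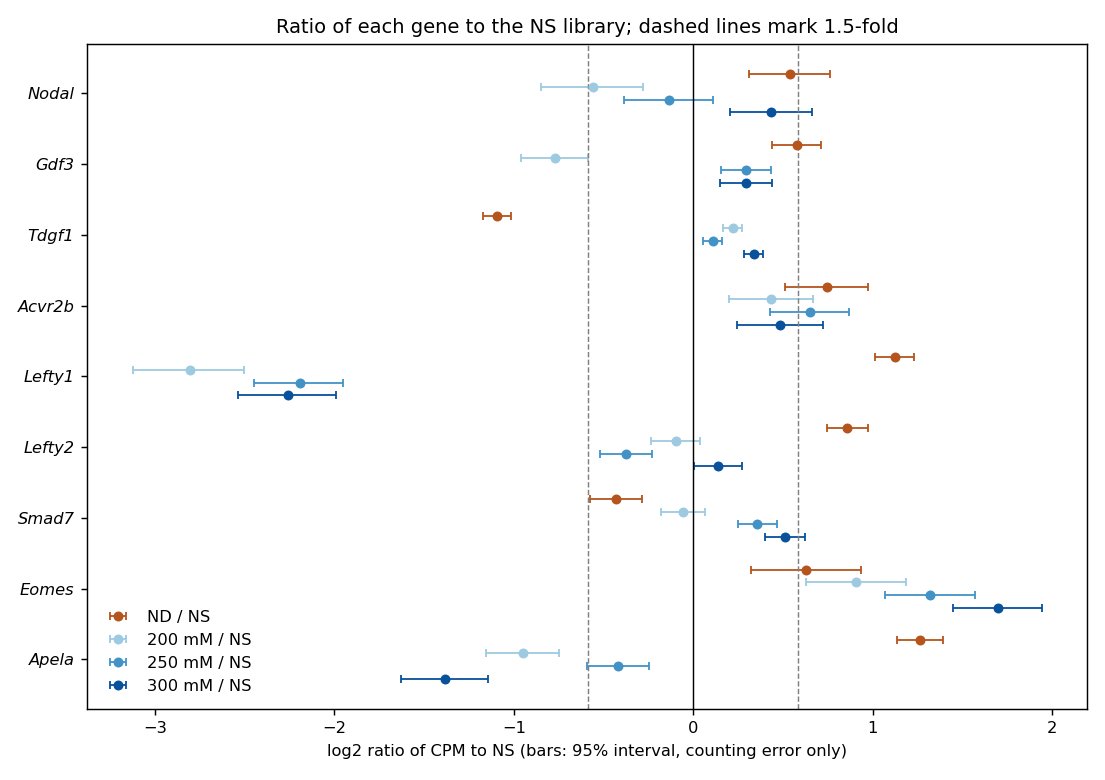
Log2 ratio of CPM to NS for the 9 genes in ND and at the 3 sorbitol doses, with exact conditional binomial 95% intervals. Lefty1 stands at 1.12 in ND and between -2.81 and -2.19 under sorbitol, and Eomes lies between 0.63 and 1.70 in all 4 comparisons.

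Nodal, the ligand that names the pathway, was measured at 30.9 CPM (27.1 to 35.0) in ND and 21.3 CPM (19.4 to 23.3) in NS, and at 14.4, 19.4 and 28.7 CPM at 200, 250 and 300 mM sorbitol. ND and 300 mM were the high libraries and 200 mM the low one. From low to high the libraries ran 200 mM, 250 mM, NS, 300 mM and ND; the intervals of the ratio between 250 mM and NS, and between 300 mM and ND, included equal levels. Its log2 ratio to NS was 0.54 (0.31 to 0.76) in ND and -0.56, -0.14 and 0.43 at the 3 doses, all inside 1.5-fold. At 200 mM it passed 1.5-fold under the median-of-ratios scaling (-0.78) and among barcodes with at least 700 genes (-1.44). That filter left 274 barcodes in ND and 590, 1787 and 579 across the doses, but all 10000 in NS. Ratios under it, here and below, thus set the gene-richest barcodes of a library against the whole of NS. Set against 200 mM, the 300 mM library had 1.99-fold more Nodal, a log2 ratio of 0.99 (0.68 to 1.31).

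Gdf3, a ligand of the Vg1 group that also needs a Cripto-type co-receptor, had 83.1 CPM (76.9 to 89.7) in ND and 55.7 CPM (52.7 to 58.9) in NS, and 32.7, 68.3 and 68.3 CPM across the doses. The 200 mM library was the low one, and the interval between 250 and 300 mM included equal levels. At 200 mM the log2 ratio to NS was -0.77 (-0.96 to -0.59), which passed 1.5-fold, whereas those of 0.58 in ND and 0.29 at each of the 2 higher doses did not; the ND ratio did with barcodes thinned to 500 UMIs (0.72), and the one at 250 mM was -0.017 among barcodes with at least 700 genes. The 300 mM library exceeded 200 mM by 2.09-fold, a log2 ratio of 1.06 (0.86 to 1.27). Between 300 and 200 mM, 5.53% of 10672 genes were called higher and 4.14% lower; Nodal, Gdf3 and Eomes were the 3 of the 9 called higher, and none was called lower. Of the last 441 windows of 60 bases of the Gdf3 transcript, 22 also occur in transcripts of 42 other genes, so its count is less certain in that respect. Among the other members only Lefty1 shared a window, and it shared 1.

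Other genes of the ligand step were few at a measurable level. Of 7 listed, which include Nodal and Gdf3, 4 reached 5 CPM in the comparisons with ND and with 200 and 250 mM and 5 in that with 300 mM. None was called in ND, 1 was called higher at each dose, and 1 was lower at 200 mM. The gene called higher was Pcsk6, a proprotein convertase that cleaves Nodal precursors, at 11.1 CPM in ND, 14.4 CPM in NS and 22.7, 22.4 and 30.6 CPM at 200, 250 and 300 mM; under the median-of-ratios scaling its call at 300 mM alone was left. The list's median log2 ratio was 0.24 in ND and -0.17, 0.31 and 0.43 across the doses (the all-gene medians above stand beside this and the following lists). No Gdf1 UMI was counted in any library, which allows up to 0.379 CPM in ND, 0.135 CPM in NS and 0.325, 0.307 and 0.362 CPM in the sorbitol series.

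Tdgf1, the co-receptor, was the member with most UMIs in each library. It stood at 197 CPM (187 to 207) in ND and 419 CPM (411 to 428) in NS, and at 488, 452 and 529.5 CPM at 200, 250 and 300 mM. ND was far below the other 4 libraries, whose levels lay close together. Against NS the log2 ratio was -1.09 (-1.17 to -1.01) in ND and 0.22, 0.11 and 0.34 across the doses; under the median-of-ratios scaling those at 200 and 250 mM became -0.0009 and -0.13, so no direction is given for them. The 300 mM library held 2.69-fold more Tdgf1 than ND, a log2 ratio of 1.43 (1.35 to 1.51), in a comparison where 27.9% of 10690 genes were called higher and 11.4% lower. Klf4, a factor of the family that recognises the GC-rich motif printed above, was also lowest in ND, at 30.9 CPM, against 102 CPM in NS and 344, 407 and 395 CPM across the doses; its part in the level of Tdgf1 was not tested.

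Cfc1 encodes Cryptic, the relative of Tdgf1 that serves as the other EGF-CFC co-receptor, and in ND it differed in the opposite direction. It had 16.6 CPM (131 UMIs) in ND and 2.12 CPM (47 UMIs) in NS, and 8, 4 and 3 UMIs at 200, 250 and 300 mM. The log2 ratio of ND to NS was 2.97 (2.47 to 3.48). As a share of the UMIs of both co-receptors, which does not depend on how libraries are scaled, Cfc1 made up 7.77% (6.54% to 9.15%) in ND and 0.503% (0.370% to 0.669%) in NS, and 0.178%, 0.0906% and 0.0683% across the doses. The share of Cfc1 was largest in ND, with no overlap between its intervals in ND and in NS.

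Acvr2b, a type II activin receptor, was measured at 31.6 CPM (27.8 to 35.8) in ND and 18.9 CPM (17.1 to 20.8) in NS, and at 25.5, 29.6 and 26.4 CPM across the doses. NS was lowest, and the intervals between neighbours among the other 4 libraries included equal levels. The log2 ratio to NS was 0.75 (0.51 to 0.97) in ND and 0.43, 0.65 and 0.49 at 200, 250 and 300 mM. ND and 250 mM passed 1.5-fold, but the ND ratio was 0.50 with every barcode thinned to 500 UMIs and 0.57 among barcodes with at least 700 genes, and the 250 mM ratio was 0.41 both with such thinning and under the median-of-ratios scaling. Acvr2b overlaps Gm47320 on the opposite strand, and Eomes overlaps Gm33460 in the same way; since the use of strand in counting is not given in the sources used here, reads of these pairs may be mixed.

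Of the 6 listed receptors and co-receptors, 5 were measured in ND, with 2 higher (Acvr2b and Cfc1) and 1 lower (Tdgf1). Of 4 measured at each dose, 1, 3 and 1 were higher at 200, 250 and 300 mM and none was lower; at 250 mM 2 of the 3 (Acvr2a and Acvr2b) were lost under the median-of-ratios scaling. Acvr1b, the type I receptor Alk4, was at 6.96 CPM in ND, 8.44 CPM in NS and 16.6, 16.0 and 18.1 CPM across the doses, called higher at each. The list's median log2 ratio was -0.28 in ND and 0.50, 0.63 and 0.50 under sorbitol.

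Downstream of the receptors, Smad2 and Smad4 varied little. Smad2 was at 35.4 CPM in ND and 36.1 CPM in NS, and at 35.5, 38.6 and 40.5 CPM across the doses. Smad4 was at 46.8 CPM in ND and 49.0 CPM in NS, and at 51.0, 44.2 and 50.8 CPM. Of the 6 listed Smads and nuclear partners, 1 was called higher in each comparison and none lower; it was Smad3 in ND and at 200 and 300 mM, where it stood at 5.10 to 5.67 CPM against 2.66 CPM in NS, and Trim33 at 250 mM. Under the median-of-ratios scaling none was called at any dose. Trim33 then fell inside 1.5-fold at 250 mM, whereas at 200 and 300 mM Smad3 fell below the 5 CPM needed for a call, so its ratio was not judged there. Foxh1, which brings Smad complexes to DNA, had 5 UMIs in ND, 14 in NS and 3, 3 and 9 across the doses, too few for a ratio to be read.

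Lefty1, the antagonist with the widest range among the 9 genes, was measured at 152 CPM (143 to 161) in ND and 69.8 CPM (66.3 to 73.3) in NS, and at 9.98 CPM (8.05 to 12.2), 15.3 CPM (12.9 to 17.9) and 14.6 CPM (12.1 to 17.4) at 200, 250 and 300 mM. ND was highest, NS intermediate and the sorbitol libraries low, with no overlap of intervals between these 3 levels. The log2 ratio to NS was 1.12 (1.01 to 1.23) in ND and -2.81 (-3.13 to -2.50), -2.19 (-2.45 to -1.95) and -2.26 (-2.54 to -1.99) across the doses. Among the sorbitol libraries, 200 mM was the lowest, and the ratio between 250 and 300 mM included equal levels. Compared with ND, the 300 mM library had 10.4-fold less Lefty1.

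Lefty2 was measured at 127 CPM (119 to 135) in ND and 70.0 CPM (66.5 to 73.5) in NS, and at 65.4, 54.0 and 77.1 CPM (71.2 to 83.3 at the last) across the doses. ND stood above all other libraries, which lay near each other. The log2 ratio to NS was 0.86 (0.74 to 0.97) in ND and -0.097 (-0.23 to 0.040), -0.37 (-0.52 to -0.23) and 0.14 (0.0045 to 0.27) at 200, 250 and 300 mM; under the median-of-ratios scaling the last became -0.12 and the one at 250 mM passed 1.5-fold (-0.61). Relative to ND, Lefty2 at 300 mM was 1.65-fold lower.

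The neighbours were thus unequal under sorbitol. Lefty1 made up 54.5% (52.4% to 56.6%) of the UMIs of both Lefty genes in ND and 49.9% (48.2% to 51.7%) in NS. Over the doses it made up 13.2% (10.8% to 16.0%), 22.0% (19.0% to 25.4%) and 15.9% (13.4% to 18.7%), below the interval of NS at each dose. Such a share does not depend on how libraries are scaled. Their longest annotated transcripts matched at 86.2% of 1453 aligned bases, with a longest identical run of 140 bases. The last 500 bases, where the tags of a 3′ kit would fall, held 441 windows of 60 bases in each. Of these, 1 window of Lefty1 occurs in Lefty2 and no window of Lefty2 occurs in another gene. Windows before the last 500 bases were not checked, so reads from there may be mixed.

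Smad7, the intracellular inhibitor that blocks type I receptors, lies on the plus strand at chr18:75367529-75395935. It was measured at 64.0 CPM (58.5 to 69.8) in ND and 86.2 CPM (82.4 to 90.2) in NS, and at 82.8, 110.5 and 123 CPM across the doses. ND was lowest, and the level was higher at each dose than at the dose below. Relative to NS its log2 ratio was -0.43 (-0.57 to -0.29) in ND and -0.059 (-0.18 to 0.063), 0.36 and 0.51 (0.40 to 0.62) at 200, 250 and 300 mM, each inside 1.5-fold; among barcodes with at least 700 genes the ratio at 200 mM was 0.12, and those in ND (-0.77) and at 300 mM (0.71) passed 1.5-fold. The 300 mM library had 1.92-fold more Smad7 than ND.

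Of the 15 listed antagonists and feedback inhibitors, 12 were measured in ND, with 4 higher (Lefty1, Lefty2, Skil and Tgif2) and 1 lower (Pmepa1). Over the doses 13 were measured, with 1 higher and 1 lower at 200 mM, 1 higher and 1 lower at 250 mM, and 5 higher and 1 lower at 300 mM; Lefty1 was the lower one each time, and the higher one at 250 mM (Dand5) was lost under the median-of-ratios scaling. Skil (SnoN), a repressor of Smad targets that is itself a target, was at 134 CPM in ND and 82.4 CPM in NS, and at 55.4 CPM at each dose. Pmepa1, a membrane protein that holds back Smad2 and Smad3, was at 32.0 CPM in ND and 70.4 CPM in NS, and at 70.6, 97.9 and 118 CPM across the doses. Tgif1, a corepressor of Smad2, was at 94.9 CPM in ND and 80.4 CPM in NS, and at 117, 113 and 167 CPM. The list's median log2 ratio was 0.25 in ND and 0.24, 0.34 and 0.51 across the doses, and at 300 mM 4 of the 5 higher calls (Ski, Ppm1a, Pmepa1 and Bambi) were lost under the median-of-ratios scaling, which gave 2, 3 and 2 lower calls at the 3 doses. No UMI of Cer1, a further secreted Nodal antagonist, was counted in any library.

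**Figure D3:**
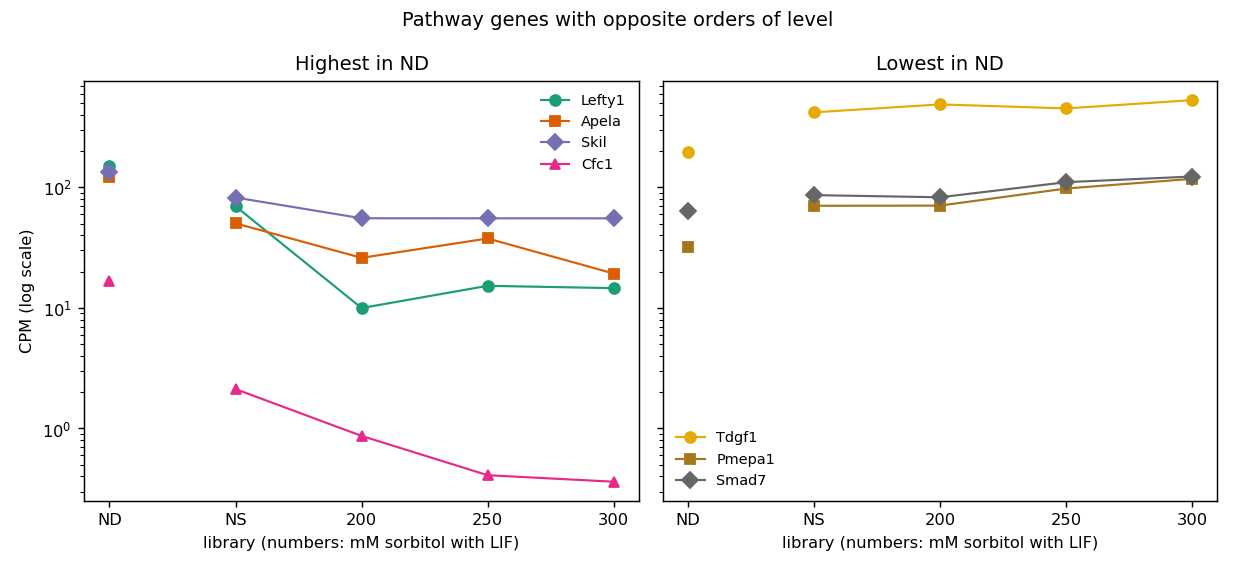
Levels in CPM (log axis) of 4 genes that were highest in ND (Lefty1, Apela, Skil and Cfc1) and 3 that were lowest in ND (Tdgf1, Pmepa1 and Smad7), 1 library per point, with the series of NS and the 3 sorbitol doses joined by lines. These genes were picked for the plot after their values were seen; Cfc1 stood at 16.6 CPM in ND, 2.12 CPM in NS and below 1 CPM under sorbitol.

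Eomes, the T-box target, was measured at 17.5 CPM (14.7 to 20.6) in ND and 11.3 CPM (9.93 to 12.8) in NS, and at 21.2, 28.2 and 36.5 CPM (32.5 to 40.9 at the last) across the doses. NS was lowest and 300 mM highest, and each dose stood above the dose below. On the log2 scale it differed from NS by 0.63 (0.32 to 0.94) in ND and 0.91 (0.63 to 1.18), 1.32 (1.07 to 1.57) and 1.70 (1.45 to 1.94) at 200, 250 and 300 mM, and it remained above 0 under each scaling and barcode filter tried. The ND call was lost with barcodes thinned to 500 UMIs (0.43) and, just, among barcodes with at least 700 genes (0.58), and the 200 mM call was lost among the latter barcodes (0.47). Against ND, the 300 mM library had 2.09-fold more Eomes.

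Of the other 10 listed targets, few were measured. Eomes was the target called higher in all 4 comparisons, of 2, 2, 3 and 3 measured in ND and at the 3 doses. The defining streak gene T had 2 UMIs in ND, 4 in NS and 2, 2 and 1 across the doses. Mixl1, Gsc and Lhx1 stayed at or below 1.52 CPM in every library, and Foxa2 reached 4.30 CPM in ND and 2.53 CPM or less elsewhere.

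Apela encodes a peptide hormone (Elabela, also Toddler) of the apelin receptor. It was measured at 121 CPM (113 to 129) in ND and 50.3 CPM (47.4 to 53.4) in NS, and at 26.0, 37.7 and 19.3 CPM (16.4 to 22.5 at the last) across the doses. ND was highest and all 3 sorbitol libraries were below NS. Its ratio to NS on the log2 scale was 1.26 (1.14 to 1.39) in ND and -0.95 (-1.16 to -0.75), -0.42 (-0.59 to -0.25) and -1.38 (-1.63 to -1.14) at 200, 250 and 300 mM, of which the one at 250 mM was inside 1.5-fold and passed it under the median-of-ratios scaling (-0.65). The 300 mM library had 6.26-fold less Apela than ND. The receptor gene Aplnr had a single UMI in all, at 250 mM, and the other ligand gene, Apln, had 1 UMI in ND, 12 in NS and 4, 3 and 9 across the doses. Apela overlaps Gm45886 on the same strand, so its count may include reads of that gene model.

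The TGF-beta arm was listed as a near relative of the pathway. Of its 7 genes, 2 were measured in ND and 3 at each dose. Tgfb1, a ligand, was called lower in ND, at 2.53 CPM against 9.30 CPM in NS.

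Markers of the states these cultures could hold are given as measured values; their part in the results above was not tested. All 6 formative epiblast markers were higher in ND, with summed levels of 296 CPM in ND and 87.2 CPM in NS, and of 131, 155 and 202 CPM across the doses, where 1, 2 and 2 of 4 measured were higher and 1, 2 and 0 were lower. Fgf5, the classical marker among them, was at 13.0 CPM in ND and 0.406 CPM in NS. Under sorbitol it was at 0.325 to 0.512 CPM (3 to 5 UMIs), too few for a call. Lef1 was at 41.9 CPM in ND, 3.70 CPM (82 UMIs) in NS and 0.868, 1.13 and 1.09 CPM across the doses. It was below the limit for a call at each dose, with a log2 ratio of -2.09 (-3.35 to -1.05) at 200 mM. The higher calls under sorbitol were Dnmt3b at each dose (log2 ratio 1.11, 1.14 and 1.58) and Otx2 at 250 and 300 mM (1.21 and 1.53). The lower calls were Zic2 at 200 and 250 mM (-1.71 and -0.96) and Pou3f1 at 250 mM (-0.61). Under the median-of-ratios scaling 1 marker was lower at 300 mM. The 6 naive markers summed to 764 CPM in ND and 981 CPM in NS, and to 1389, 1817 and 2018 CPM across the doses; 2 were lower in ND (Klf4 and Tbx3), and 3, 3 and 5 were higher at 200, 250 and 300 mM, with 1 lower at 200 mM (Nr0b1). Under the median-of-ratios scaling 2, 2 and 4 were higher, without Tfcp2l1 at 200 and 250 mM and without Zfp42 at 300 mM. Zfp42, whose promoter drives the reporter, was at 523.5 CPM in ND and 562 CPM in NS, and at 521, 778 and 879 CPM. The 6 streak markers, Eomes included, summed to 24.8 CPM in ND, 15.6 CPM in NS and 24.1 to 41.2 CPM under sorbitol. Most of each sum was Eomes, the 1 gene of this list that was measured, at 17.5 CPM in ND, 11.3 CPM in NS and 21.2, 28.2 and 36.5 CPM across the doses. The primitive endoderm list summed to 8.22 CPM in ND and 13.0 CPM in NS, and to 14.5, 17.8 and 23.3 CPM across the doses. Only 1 of its genes, Gata6, was measured in each comparison. Gata6 was lower in ND and higher at 250 and 300 mM, and its call at 250 mM was lost under the median-of-ratios scaling. Gata4, below the limit for a call, was at 2.15 CPM in ND, 4.20 CPM in NS and 2.50, 3.69 and 3.14 CPM across the doses. The definitive endoderm list summed to 24.3 CPM in ND and 21.1 CPM in NS, and to 19.6, 28.8 and 31.5 CPM, with no UMI of Cer1. The trophoblast list summed to 129 CPM in ND, 89.4 CPM in NS and 154 to 174 CPM under sorbitol, mostly Tfap2c and Hand1. In ND, 2 of 4 measured were higher (Tfap2c and Gata3) and 1 was lower (Hand1). At each dose 2 of 3 were higher (Tfap2c and Hand1), and Krt7 was lower at 200 mM. Tfap2c was at 108.9 CPM in ND, 47.3 CPM in NS and 86.1, 100.6 and 103.2 CPM across the doses. Hand1 was at 4.81 CPM in ND, 29.4 CPM in NS and 60.4, 47.2 and 60.2 CPM at the 3 doses. Gata3 was at 6.20 CPM in ND and 3.97 CPM in NS, and below the limit for a call at each dose. Under the median-of-ratios scaling the call of Hand1 at 250 mM was lost, and 1 gene was lower at 300 mM. The list's defining genes Cdx2 and Elf5 stayed at or below 1.64 CPM. The neuroectoderm list summed to 25.7 CPM in ND and 15.7 CPM in NS, and to 17.0, 15.3 and 11.5 CPM across the doses. In ND, 1 of 3 measured was higher (Sox11, log2 ratio 2.42) and none lower. At 200 mM, 2 of 3 were higher (Sox11, 1.36, and Nes, 0.78), and at 250 mM 1 of 2 was higher (Nes, 1.02). Under the median-of-ratios scaling the call of Nes at 200 mM was lost. Pax6 was the 1 lower call at each dose. It was at 7.97 CPM in ND, 7.63 CPM in NS and 1.19, 0.819 and 0.724 CPM across the doses. Feeder fibroblast markers summed to 2.28 to 9.22 CPM, with Col3a1 and Postn at 0 UMIs in every library.

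At the level of single barcodes the genes were sparse. Median depth was 818 UMIs in ND, 2135 in NS and 887, 939 and 800 across the doses, so each kept barcode was thinned to 500 UMIs before shares were compared. Lefty1 was then seen in 7.12% (6.61% to 7.66%) of barcodes in ND and 3.32% (2.98% to 3.69%) in NS, and in 0.431%, 0.800% and 0.711% across the doses. Without thinning the shares were 11.8% in ND and 13.1% in NS, which reverses their order, and 0.911%, 1.47% and 1.22%. Lefty2 was seen in 6.05% of thinned barcodes in ND and 3.47% in NS, and in 3.25%, 2.65% and 3.69%. Tdgf1 was seen in 9.30% in ND and 18.4% in NS, and in 20.9%, 19.9% and 23.0%. Apela was seen in 5.57% in ND and 2.47% in NS, and in 1.15%, 1.93% and 0.954%, and Eomes in 0.768% in ND and 0.570% in NS, and in 1.02%, 1.41% and 1.72%. No class of cells that should lack these genes was identified, so the part of these shares that free RNA could give was not measured.

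**Figure D4:**
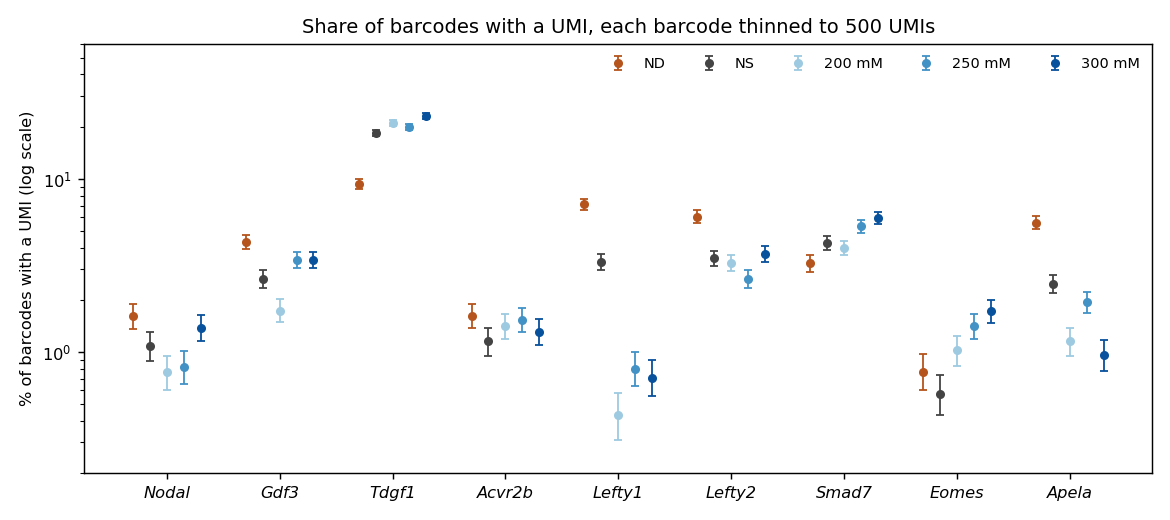
Share of kept barcodes with at least 1 UMI of each gene after thinning every barcode to 500 UMIs, in percent, with exact Clopper-Pearson 95% intervals, in ND, NS and the 3 sorbitol libraries. Tdgf1 is in 9.30% of barcodes in ND and in 18.4% to 23.0% elsewhere, and Lefty1 is in 7.12% in ND and under 1% in the sorbitol libraries.

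The variance over the mean of thinned UMIs lay between 0.983 and 1.066 for all 9 genes in all 5 libraries; at means this low it is near 1 for most genes. Lefty2 at 300 mM had the highest value, above 99.8% of 994 genes of like mean, whose median was 1.002. Tdgf1 at 200 and 250 mM stood above 98.3% and 96.8% of its like genes, and Gdf3 at 200 mM above 97.9%. Of the 36 gene pairs in 5 libraries, 173 of 180 had a number of shared barcodes whose interval included the product of both genes' shares, 5 lay above it and 2 below. Lefty1 and Lefty2 were seen together in 47 barcodes in ND, beside a product of 39.8, and in 17 in NS, beside 11.5. For those 173, joint detection above or below that product was not detectable at this depth.

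After the same thinning, barcodes with a Lefty1 UMI were also set against those without. In ND, 658 barcodes had one and 8582 had none, and in NS 332 and 9668. Lefty2 had a log2 ratio of positive to Lefty1-free barcodes of 0.23 (-0.23 to 0.65) in ND and 0.55 (-0.24 to 1.254) in NS. With NS thinned to 1000 UMIs instead, 694 barcodes were positive, and the ratio was 0.71 (0.36 to 1.05) for Lefty2 and 0.24 (0.08 to 0.40) for Tdgf1. Smad7 had 0.76 (0.10 to 1.35) in NS at 500 UMIs, but 0.26 (-0.11 to 0.60) at 1000 UMIs and -0.56 (-1.42 to 0.18) in ND. Among the listed state markers in ND and NS, intervals that left out 0 were those of Pou3f1 (0.95, 0.27 to 1.58) and Zic2 (1.03, 0.013 to 1.91) in ND, and of Tbx3 (-0.60, -1.04 to -0.19), Zfp42 (-0.20, -0.36 to -0.042) and Klf4 (0.35, 0.026 to 0.67) in NS at 1000 UMIs; in NS at 500 UMIs the intervals of these last 3 included 0. Among the 5 highest genes in NS, Surf4, Kdm1a, Copb2 and Pfdn2 (0.69 to 0.86) had 0.13 to 0.27 at 1000 UMIs, and the 5 lowest (Huwe1, Llph, Smdt1, Eif3i and Fmr1nb, at -0.85 to -0.68) had -0.13 to 0.18, with intervals that included 0 for each gene named here.

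Genes with the level pattern most like each member were found by the root mean square difference of centred log2 CPM over the 5 libraries, among 6021 genes of at least 20 CPM on average. This is a description of 5 points that share their libraries. The nearest to Lefty1 were Ina, an intermediate filament gene (0.24), the carbonyl reductase gene Cbr3 (0.34) and the cyclin D1 gene Ccnd1 (0.35), beside a median of 1.58 over all candidates. Ina was at 84.1 CPM in ND and 39.9 CPM in NS, and at 8.57, 8.40 and 9.41 CPM across the doses. The nearest to Apela were the X-linked homeobox genes Rhox9 (0.25) and Rhox6 (0.26) and the RNA-binding protein gene Pcbp4 (0.29), and the nearest to Lefty2 were the actin gene Actg1 (0.092), Snhg4 (0.093) and the claudin gene Cldn6 (0.11). Those nearest to Tdgf1 were Prr13 (0.069), the fatty acid-binding protein gene Fabp3 (0.095) and Sccpdh (0.11). Fabp3 was at 253 CPM in ND and 611 CPM in NS, and at 607, 656 and 689 CPM across the doses.

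For the ligands, Nup35, Enc1 and L1td1 were nearest to Nodal (0.067, 0.096 and 0.11), and the m6A reader gene Ythdc1, L1td1 and L3mbtl2 were nearest to Gdf3 (0.093, 0.14 and 0.14). L1td1, an RNA-binding protein gene of pluripotent cells, was at 618 CPM in ND and 431 CPM in NS, and at 265, 416 and 494 CPM. Dicer1, Pik3cb and Bckdk were nearest to Acvr2b (0.044 to 0.049), Ahsa2, Ino80d and Atg14 to Smad7 (0.054 to 0.062), and Wdr6, Tcf7l1 and Zfp740 to Eomes (0.043 to 0.093). Tcf7l1, a repressor of Wnt target genes, was at 84.5 CPM in ND and 58.4 CPM in NS, and at 124, 152 and 187.5 CPM across the doses. Of these 27 pairings of a member with a near gene, in which L1td1 appears for both ligands, 6 were also among the 3 nearest by Pearson correlation.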

How the data were processed

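The authors deposited unnormalised UMI counts for each gene in each barcode, written by Cell Ranger 6.0.1, per the file headers. The submitters' processing notes add Seurat 4.1.1, R 4.1.2 and mm10 and give no step for any of them. Trizol and a Lexogen 3′ kit appear in the labels' protocol, although these are droplet matrices; it could not be settled how far that protocol applies. For annotation, use of strand and choice of barcodes, the method is not given in the sources used here. No doublet caller was run.

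UMIs of kept barcodes were summed and scaled to CPM with Python 3.11.15, numpy 2.4.6, scipy 1.17.1 and pandas 2.3.3. Intervals were exact Poisson for levels, exact conditional binomial for ratios and Clopper-Pearson for shares. Counts under 3 UMIs were set to 3, giving a bound. In the Lefty1 split, no ratio is given where either class had 3 UMIs or fewer, a rule set after the values were seen. The ratio calculation was tested on simulated data. Coordinates and transcripts came from GENCODE M21, promoters from RefSeq.

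Named genes are all 9 members, up to 4 called genes per list and comparison by size of ratio, the 3 genes nearest each member, and the 5 highest and 5 lowest in the Lefty1 split. Other genes named (undetected or low receptors, targets and markers, Smad2, Smad4, Aplnr and Apln) were chosen after their values were seen. The members and the 15 gene lists were chosen with earlier results of these data known. Alternatives were another scaling, other barcode filters, thinning, and other limits for a call. Some genes that the naming rule covers are not reported here.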

Additional observations from a re-analysis of the deposited data

How the results depend on the processing

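Of 216 member ratios under 6 alternatives of scaling and barcodes, 173 moved by less than their counting interval and 43 by more. Lefty1 and Tdgf1 in ND, and Lefty1 at each dose, were called in all of them. Of 72 counts of called members, 60 stayed within 1.5 times. Under the median-of-ratios scaling, 1 member was higher and 3 lower at 250 mM, and without mitochondrial and ribosomal protein genes, as with barcodes thinned to 500 UMIs, 1 was higher there. A minimum of 700 genes left 274 barcodes in ND, 10000 in NS and 590, 1787 and 579 across the doses. With it, 2 were lower in ND, 0 higher at 200 mM, 2 lower at 250 mM and 3 higher at 300 mM. Gdf3 at 250 mM then had a log2 ratio of -0.017. At a 2-fold limit, 2 were higher in ND, 0 higher and 1 lower at 200 mM, and 1 higher at 250 mM. All 45 shares of barcodes moved without thinning. In the Lefty1 split of NS, Llph, Eif3i and Fmr1nb changed sign at 1000 UMIs, to 0.069, 0.11 and 0.18, and without the rule on 3 UMIs, set after the values were seen, further ratios from very few UMIs changed sign; requiring 2 Lefty1 UMIs left 9 barcodes and gave no value. By Pearson correlation 6 of the 27 pairings of a member with a near gene were the same. The cause was not tested. No paired analysis was possible because each condition had 1 library. Depth limits genes below 5 CPM, such as Cfc1 under sorbitol, and every count of barcodes with 2 genes at once.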
